A study of Mus musculus with 39 samples.

Results

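The genes described here encode the cytosolic ribosomal proteins, the protein part of the machine that makes nearly all cellular protein. They were chosen by symbol alone: protein-coding genes named Rps or Rpl with a number, Rplp0 to Rplp2 and Rpsa, without pseudogene copies and without the S6 kinases. The rule found 83 of 43430 genes in the deposited table, 32 of the small subunit and 51 of the large subunit. RNA was sequenced from cells sorted from lungs of C57BL/6J mice, and all groups shared that strain. Monocytes came from naive mice, and Siglec F-low alveolar macrophages, which the series text calls monocyte-derived, came from mice after bleomycin, an antitumour drug used to injure lungs so that they scar. Each cell type was taken from young saline, young ISRIB, old saline and old ISRIB mice. ISRIB is a compound that activates the initiation factor eIF2B and thereby relieves the integrated stress response, in which phosphorylated eIF2 lowers protein synthesis. Each of the 8 groups had 5 libraries except young ISRIB macrophages, with 4. The sample labels give young mice as 8 to 12 weeks and old mice as over 18 months. In the series text the ages are 3 to 5 and 18 to 24 months. Per that text, ISRIB or vehicle was given daily from day 7 after bleomycin and cells were collected on day 21. No timing was given for the naive mice. Cell type and bleomycin changed together in this design, so their contributions to any difference between macrophages and monocytes cannot be told apart. Whether each library came from 1 mouse was not given, so p-values measure only the spread between these libraries, which may be technical.

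A cytosolic ribosome has a small subunit, which reads the mRNA, and a large subunit, which joins amino acids. Each subunit is built on ribosomal RNA in the nucleolus by assembly factors that leave before the ribosome works. Most ribosomal protein mRNAs begin with a run of pyrimidines, the 5′ terminal oligopyrimidine or TOP tract, which lets mTOR signalling set their translation together with that of elongation factors. A few proteins have a second gene, a paralogue, such as Rps27l beside Rps27, Rpl7l1 beside Rpl7 and Rpl22l1 beside Rpl22. Rpl5 and Rpl11 also bind Mdm2, the ubiquitin ligase of p53, when they are not in ribosomes.

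Sequences around the transcription start are shown for a selection of members, most of them described below. Pyrimidine tracts and promoter elements are what these genes are known to share. RefSeq promoter windows (GRCm38.p6, 250 bases before to 50 after the start) were matched for 63 of the 83 members. Each printed stretch holds 40 bases before and 20 bases from the start, 5′ to 3′ on the gene's strand, and capitals mark a match to a searched motif. The first set holds only genes with a CTCTTT match. The same stretches of Rplp0, Rplp2, Rpsa and Rps2, described below but not printed, held no searched motif, and that of Rpl35 held CTCTTT. The printed genes therefore do not show how common a motif is among members. The first set shows the small-subunit genes Rps6 (chr4:86857348-86857407, minus strand) and Rps9 (chr7:3704001-3704060, plus strand), both lower in macrophages, and the large-subunit genes Rpl5 (chr5:107900488-107900547, plus strand) and Rpl28 (chr7:4792925-4792984, plus strand), with the pyrimidine string CTCTTT in capitals.
Rps6: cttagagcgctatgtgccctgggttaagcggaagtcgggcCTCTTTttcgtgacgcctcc
Rps9: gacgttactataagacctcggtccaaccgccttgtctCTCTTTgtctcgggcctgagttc
Rpl5: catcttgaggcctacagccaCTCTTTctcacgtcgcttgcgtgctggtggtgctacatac
Rpl28: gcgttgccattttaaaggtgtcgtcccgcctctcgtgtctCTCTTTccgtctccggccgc
In Rps6 and Rpl28 the match began exactly at the annotated first base of the transcript. Relative to that base it began at -3 in Rps9 and at -20 in Rpl5, where the whole match lay before the RefSeq start.

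The second set pairs Rps27 (chr3:90213629-90213688, minus strand) with its paralogue Rps27l (chr9:66946046-66946105, plus strand), and Rpl22 (chr4:152325686-152325745, plus strand) with Rpl22l1 (chr3:28805468-28805527, plus strand), since the members of each pair are compared below. Rpl7l1 (chr17:46782637-46782696, minus strand) stands alone.
Rps27: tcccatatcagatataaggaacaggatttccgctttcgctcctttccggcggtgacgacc
Rps27l: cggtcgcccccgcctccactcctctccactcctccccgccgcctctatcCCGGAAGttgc
Rpl22: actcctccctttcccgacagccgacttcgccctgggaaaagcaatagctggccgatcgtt
Rpl22l1: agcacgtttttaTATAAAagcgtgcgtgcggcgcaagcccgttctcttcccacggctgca
Rpl7l1: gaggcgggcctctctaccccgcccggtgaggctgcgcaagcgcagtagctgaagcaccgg
The capitals in Rps27l are CCGGAAG, letters known from sites of ETS-family factors, and those in Rpl22l1 are TATAAA, the letters of a TATA box. Over the whole 300-base windows, CTCTTT on the sense strand was found in 22 of 63 members (34.9%) against 12% of 27025 promoters. CCGGAAG on either strand was found in 25 members (39.7%) against 9.12% of promoters. TATAAA on the sense strand was found in 6 members (9.52%) against 8.88%. No searched motif contains another, and a match describes only letters in a window.

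Depth was 4595331 to 16056708 counts per library, with a median of 8628240. Siglecf was 46.8 to 156 CPM (counts scaled to a common library size) in macrophages and 0 to 1.57 CPM in monocytes. Ly6c2, a marker of classical monocytes, was 0.193 to 7.01 and 278 to 698 CPM, so the cell types did not overlap in either gene. The summed 7 classical monocyte markers did overlap, at 3920 to 12200 CPM in macrophages and 5600 to 12700 CPM in monocytes. Chil3 belongs both to this list and to that of alveolar macrophages. Of the same list, Ccr2 did not overlap, at 53.4 to 453 CPM in macrophages and 1060 to 3960 CPM in monocytes. The remaining genes of the list are not given singly. The 5 nonclassical monocyte markers summed to 169 to 372 and 1420 to 4860 CPM, and the 9 alveolar macrophage markers to 7890 to 18000 and 719 to 2190 CPM. Young saline monocyte replicate 4 stood apart from all other libraries. It had the lowest depth, 12324 detected genes, and the highest share of counts in ribosomal protein genes, and its mean log2 CPM of transcripts under 1000 bases minus that of transcripts over 4000 bases was -1.873, against -2.492 to -2.309 in the other 19 monocyte libraries. Its summed T and NK cell markers were 40.5 CPM against 8.12 to 23.7 in the rest of its group, and its dendritic cell markers were 126 against 24.5 to 70.5 CPM. Its B and plasma cell markers, at 262 against 152 to 219 CPM, were also above the rest, and its neutrophil markers, at 508 against 569 to 810 CPM, were below them. Medians over all members are given with and without it, as are named calls that were lost without it. Other values of young saline monocytes include it, among them single-gene changes, counts without overlap, and the medians by subunit, list and motif.

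Ribosomal protein genes took a smaller share of all counts in macrophages than in monocytes. In young saline monocytes the share was 2.65, 2.276, 2.327, 4.36 and 2.716%, and in young saline macrophages it was 1.705, 1.984, 1.612, 1.735 and 1.539%. The group means were 2.866% ± 0.857 (SD, n = 5) and 1.715% ± 0.169 (SD, n = 5). In old saline mice they were 2.627% ± 0.225 in monocytes and 1.568% ± 0.131 in macrophages (SD, n = 5 each). Over all 39 libraries the highest macrophage (1.984%) lay below the lowest monocyte (2.189%), so the cell types did not overlap. The small subunit had less than the large in every group, and its summed counts divided by those of the large subunit were 0.763 to 0.78 in the means of the monocyte groups and 0.722 to 0.728 in those of the macrophage groups. A share of mRNA counts is relative: less ribosomal protein mRNA per cell cannot be told apart from more of other mRNAs, and in bulk libraries fewer cells of a type cannot be told apart from less RNA per cell.

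**Figure D1:**
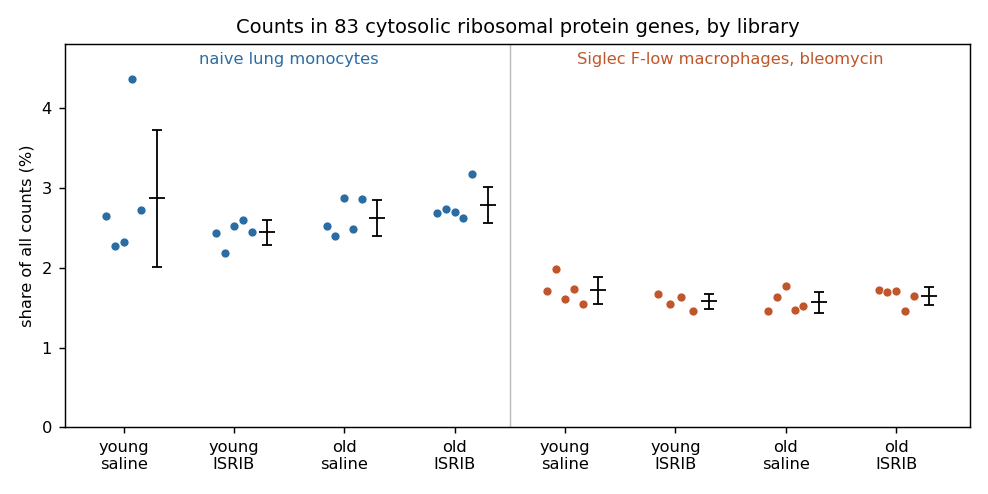
Share of all counts in the 83 ribosomal protein genes (vertical axis, percent) for each of the 39 libraries, by age and treatment, with monocytes on the left and macrophages on the right; points are libraries, and bars beside them are the mean and SD. All macrophage libraries lie at or below 1.984%, all monocyte libraries at or above 2.189%, and young saline monocyte replicate 4 stands apart at 4.36%.

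Gene by gene, most of the family was lower in macrophages than in monocytes at both ages. Of 82 members tested in young saline mice, 70 were lower and 4 higher by edgeR's quasi-likelihood test (adjusted p under 0.05). That is 74 called, in a comparison where 60% of all genes were called, 31% higher and 29% lower. The members' median log2 fold change was -0.70, a difference in relative level, against 0.01 over all 13587 genes. In old saline mice 68 of 82 were lower and 4 higher, with a background of 57% called, 29.7% higher and 27.3% lower, and the members' median was -0.63. Both ages shared 70 called members, 67 lower and 3 higher, which was 94.6% of those called in young and 97.2% of those called in old mice. The libraries of the cell types did not overlap for 51 lower members in young mice, where this held for 17.9% of all genes, and for 63 in old mice, where it held for 20.7%. Higher members without overlap numbered 2 in young (22.1% of all genes) and 1 in old mice (22.5%). Without young saline monocyte replicate 4 the young comparison had 62 lower and 5 higher members with a median of -0.47. Short transcripts were also relatively lower in macrophages, whose short minus long log2 difference was -2.786 to -2.493. With offsets for transcript length and GC content in the fit, 62 members were lower and 6 higher in young and 60 lower and 4 higher in old mice, with medians of -0.51 and -0.47. The shares of all genes given above belong to the fit with all libraries and no offsets, not to these counts. Among the members themselves, the correlation of the young log2 fold change with transcript length was -0.115 over 82 genes. These include Rpl39l at 6.49, a value that rests on 0 counts in the young saline monocytes. Such an outlying value can move the coefficient, and a correlation without it is not given, so nothing is concluded about length.

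Of markers of other blood cells, those of neutrophils and dendritic cells also differed between the sorts without overlap. Those of B and plasma cells and of T and NK cells overlapped. Over the groups, summed neutrophil markers were 432 to 810 CPM in monocytes and 79.7 to 161 CPM in macrophages, and dendritic cell markers were 24.5 to 175 and 6.11 to 23 CPM. B and plasma cell markers were 138 to 310 and 6.97 to 597 CPM, and T and NK cell markers were 8.12 to 106 and 5.04 to 40.5 CPM. Their part in the difference was not tested.

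**Figure D2:**
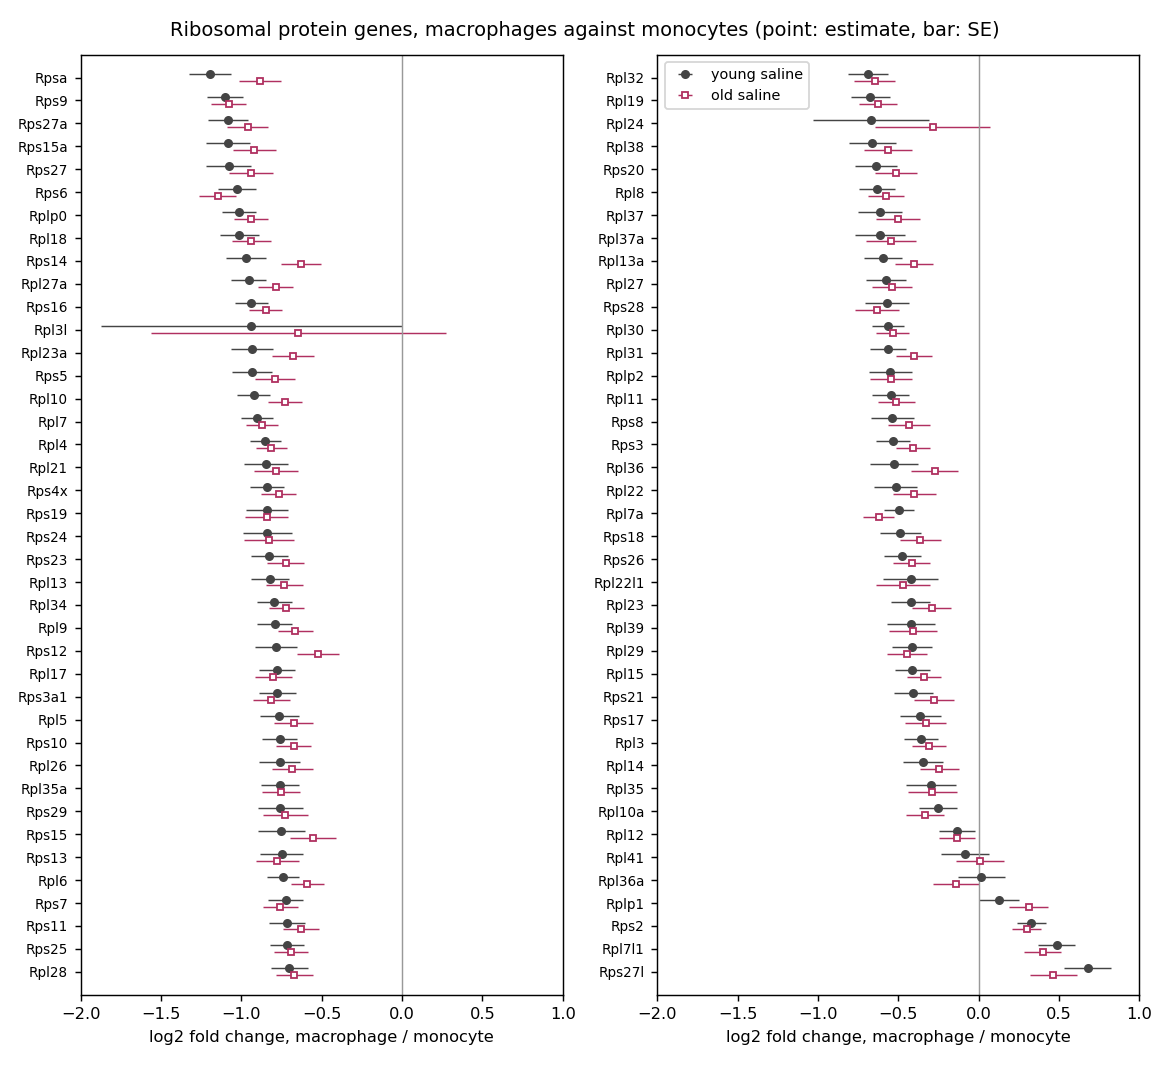
Log2 fold change of macrophages over monocytes (horizontal axis) for 80 ribosomal protein genes, ordered by the young value; filled circles are young saline mice, open squares old saline mice, and bars are the standard error. Nearly all points lie left of 0, and Rps27l, Rpl7l1, Rps2 and Rplp1 lie right of 0 at both ages. Of the 82 genes tested 2 are not drawn, among them Rpl39l because all young saline monocyte libraries had no count.

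Small-subunit genes had the lower medians. In young mice 30 of 32 were lower, with a median log2 fold change of -0.76, and in old mice 29 were, with a median of -0.71. Large-subunit genes were lower for 40 of 50 and 39 of 50, with medians of -0.61 and -0.55. Rpsa, a small-subunit protein near the mRNA exit that is also known as the laminin receptor, was 642, 445.6, 454.1, 928.9 and 623.5 CPM in young saline monocytes and 278.4, 300.7, 260.1, 267.3 and 244.8 CPM in young saline macrophages. Every macrophage library lay below every monocyte library. The log2 fold change was -1.19 ± 0.13 (SE, adjusted p = 3.01e-10), and it was -0.89 ± 0.13 in old mice (adjusted p = 2.2e-07).

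Rps9, a core protein of the small-subunit body, had the highest level per kilobase of all members in monocytes. It was 1016, 794.1, 819, 1437 and 918.4 CPM in young saline monocytes and 468.6, 517.9, 443.1, 479.8 and 413.8 CPM in young saline macrophages, with no overlap. Its log2 fold change was -1.10 ± 0.11 in young (adjusted p = 3.52e-11) and -1.08 ± 0.11 in old mice (adjusted p = 5.96e-11). The values at the 2 ages lay within their SE of each other.

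Rps6, the small-subunit protein phosphorylated by the S6 kinases downstream of mTOR, was 343.6, 255.6, 272.2, 444.5 and 356.8 CPM in young saline monocytes and 184.9, 190.8, 126.3, 173.3 and 145.5 CPM in macrophages. In old saline mice it was 283.3, 262.3, 332.8, 291.1 and 336.1 CPM in monocytes and 127, 143.6, 139.3, 128.9 and 140.3 CPM in macrophages. At both ages the groups were apart, and the old macrophages were tightly spaced. Its log2 fold change was -1.03 ± 0.12 in young (adjusted p = 7.71e-10) and -1.15 ± 0.12 in old mice (adjusted p = 5.23e-11), the lowest value of all members in old mice. Rps27a, made as a fusion of ubiquitin and a small-subunit protein, changed by -1.08 ± 0.13 in young and -0.96 ± 0.13 in old mice (adjusted p = 1.7e-09 and 2.64e-08).

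The stalk of the large subunit, which recruits elongation factors, did not move as a unit. Rplp0, its base, was 1375, 1014, 1003, 1415 and 1252 CPM in young saline monocytes and 603.6, 666.5, 554.8, 621.1 and 550.3 CPM in macrophages. The log2 fold change was -1.02 ± 0.11 in young (adjusted p = 9.3e-11) and -0.94 ± 0.11 in old mice (adjusted p = 6.37e-10), with no overlap at either age. Rplp2, one of the acidic stalk proteins, was lower by less, at -0.55 ± 0.13 in both (adjusted p = 4.39e-04 and 5.11e-04), and did not pass the test with the length and GC offsets (adjusted p = 0.185 and 0.0548). Its partner Rplp1 was 447.5, 337.6, 327, 663.5 and 391 CPM in young saline monocytes and 474, 551.1, 480, 446.4 and 410.4 CPM in macrophages. Those ranges overlapped, and the difference was 0.13 ± 0.12 (adjusted p = 0.389). In old mice Rplp1 was higher in macrophages, 0.31 ± 0.12 (adjusted p = 0.0314), but this call was lost in 6 of 17 alternative settings. Besides Rpl7l1 and Rpl39l, described below, the large-subunit members called lower at neither age were Rplp1, Rpl36a, Rpl41, Rpl12, Rpl35, Rpl24 and Rpl3l.

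Rpl5 and Rpl11, which carry 5S ribosomal RNA into the large subunit, were lower at both ages. Rpl5 changed by -0.77 ± 0.12 and -0.67 ± 0.12 (adjusted p = 9.91e-07 and 9.29e-06) and Rpl11 by -0.55 ± 0.12 and -0.51 ± 0.12 (adjusted p = 9.75e-05 and 2.39e-04).

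Against the family's direction, Rps27l, Rpl7l1 and Rps2 were higher in macrophages at both ages, and 2 of these 3 are paralogues of a gene that was lower. Rps27l, known as a p53 target, was 43.67, 34.75, 34.99, 67.88 and 42.8 CPM in young saline monocytes and 75.87, 83.47, 69.47, 61.97 and 65.7 CPM in macrophages. The young groups overlapped only through monocyte replicate 4. In old saline mice monocyte replicate 3 (59.14 CPM) lay above macrophage replicates 1, 3 and 5 (56.89, 53.46 and 53.9 CPM). The log2 fold change was 0.68 ± 0.15 in young and 0.46 ± 0.15 in old mice (adjusted p = 1.39e-04 and 0.0067). Its parent Rps27, a zinc-finger protein of the small subunit, changed the other way, -1.08 ± 0.14 and -0.94 ± 0.14 (adjusted p = 1.22e-08 and 2.14e-07), with no overlap.

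Rpl7l1 was 55.35, 52.99, 55.16, 62.77 and 60.55 CPM in young saline monocytes and 78.58, 89.9, 64.88, 91.49 and 76.38 CPM in macrophages. No libraries overlapped, and the log2 fold change was 0.48 ± 0.11 in young and 0.40 ± 0.11 in old mice (adjusted p = 3.47e-04 and 0.00281). Rpl7, its parent, changed by -0.90 ± 0.10 and -0.87 ± 0.10 (adjusted p = 2.3e-10 and 5.47e-10). Rps2, a small-subunit protein of the mRNA entry side, was 285.8, 241.8, 246.9, 310 and 321 CPM in young saline monocytes and 335.1, 417, 336.5, 351.3 and 321.4 CPM in macrophages. The 2 young groups touched without overlapping. In old saline mice monocyte replicate 3 (314.7 CPM) lay above macrophage replicates 1 and 5 (311.3 and 300 CPM). The change of Rps2 was 0.33 ± 0.09 in young and 0.30 ± 0.09 in old mice (adjusted p = 0.00188 and 0.00438). With library totals as the only scaling, which moved the median of all genes in the old comparison to -0.13, the old values of Rps27l, Rpl7l1 and Rps2 stayed above 0 but were no longer called (adjusted p = 0.054, 0.0569 and 0.142).

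The ratio of a paralogue to its parent within a library needs no scaling between libraries, but it is not adjusted for transcript length or GC content. Over all alternative settings the change of Rps27 came as near to 0 as -0.52 in young and -0.46 in old mice. Its largest adjusted p, 7.24e-04 and 0.00256, came with the length and GC offsets. For Rps27l over Rps27 the mean log2 ratio was -0.96 ± 0.07 in young saline macrophages and -2.70 ± 0.16 in young saline monocytes (SD, n = 5 each), a difference of 1.75, and in old saline mice the difference was 1.42. For Rpl7l1 over Rpl7 the differences were 1.37 in young and 1.26 in old mice. In these 4 comparisons no libraries overlapped, and each gave p = 0.00794 by a two-sided exact permutation test, the smallest it can give with 5 against 5 libraries (adjusted p = 0.0119 over 6 tests). The third pair behaved otherwise: Rpl22l1 over Rpl22 differed by 0.08 in young and -0.10 in old mice (exact permutation p = 0.508 and 0.579, adjusted p = 0.579 for both). Rpl22l1 and Rpl22 were each lower in macrophages, by similar amounts: -0.42 ± 0.17 and -0.52 ± 0.13 in young, and -0.47 ± 0.17 and -0.40 ± 0.13 in old mice (adjusted p = 0.0297, 9.71e-04, 0.0153 and 0.00932). Neither passed the test with the length and GC offsets (adjusted p = 0.814 and 0.159 in young, 0.527 and 0.417 in old mice), and Rpl22l1 also lost its call without some single saline libraries. In young mice these were monocyte replicate 4 (adjusted p = 0.247) and macrophage replicates 3 and 5 (adjusted p = 0.0876 and 0.0794), and in old mice macrophage replicate 4 (adjusted p = 0.0547).

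**Figure D3:**
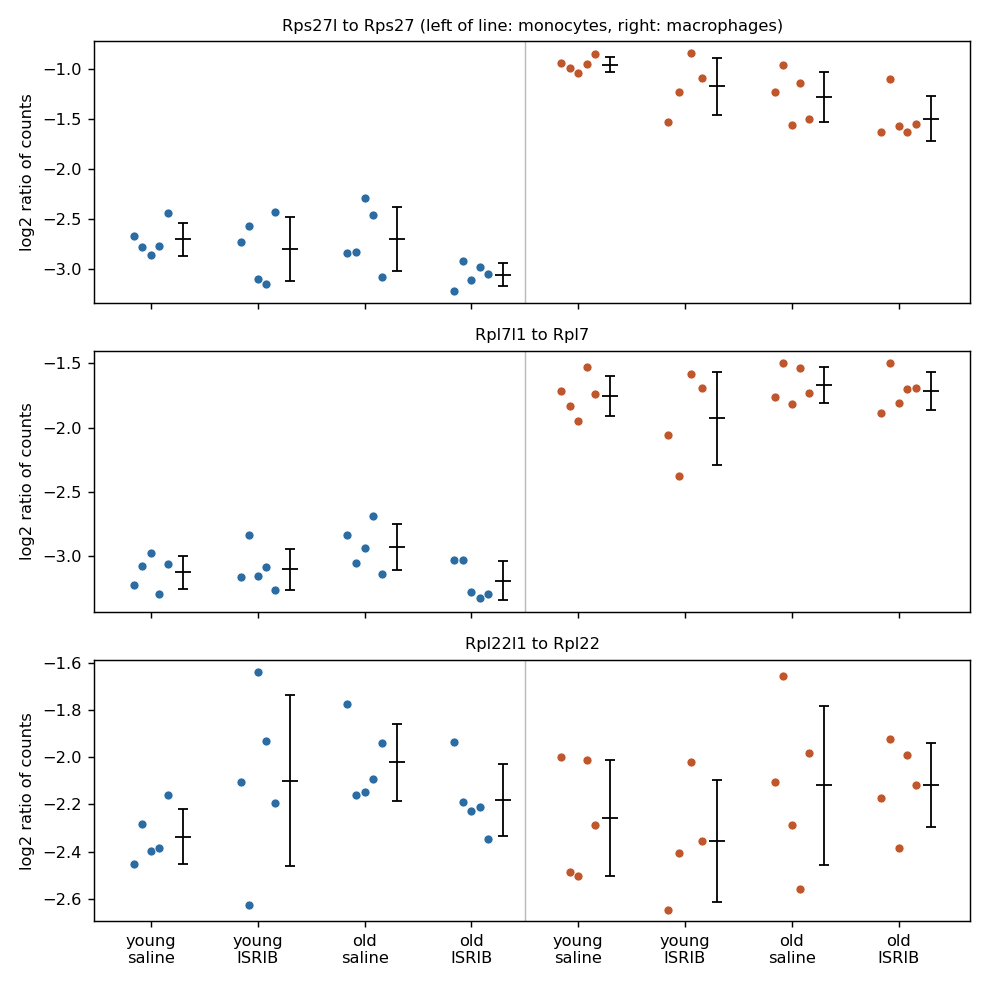
Log2 ratio of counts of a paralogue to its parent gene (vertical axes) in each of the 39 libraries, for Rps27l to Rps27, Rpl7l1 to Rpl7 and Rpl22l1 to Rpl22, by age and treatment, with monocytes left and macrophages right of the line; points are libraries, and bars are the mean and SD. The upper 2 panels show macrophages above monocytes without overlap, and in the lowest panel the cell types overlap.

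The paralogues Rpl3l, Rpl39l and Rpl10l were scarce or had no count. Rpl3l, the striated-muscle form of Rpl3, had 215 counts over 20 monocyte libraries and 156 over 19 macrophage libraries, and its difference was not called (adjusted p = 0.396 in young and 0.571 in old mice). Rpl3 itself was lower, -0.36 ± 0.11 and -0.31 ± 0.10 (adjusted p = 0.00341 and 0.011). Rpl39l, a testis-enriched form of Rpl39, had 49 counts in 4 of 5 young saline macrophage libraries and 0 in the monocytes, at least 14.6-fold higher against a limit of 3 counts over the group (adjusted p = 0.00323). In old saline mice it had 45 counts in macrophages and 11 in monocytes, a ratio of 4.04 (95% interval 2.05 to 8.65, counting error only) that was not called across libraries (adjusted p = 0.131). Rpl39 was lower, -0.42 ± 0.15 and -0.41 ± 0.15 (adjusted p = 0.0133 and 0.0166), but was not called with the length and GC offsets (adjusted p = 0.128 and 0.101). Rpl39 was also not called in young mice without saline monocyte replicate 4 (adjusted p = 0.131) or in old mice without saline monocyte replicate 3 (adjusted p = 0.0704). Rpl10l, another testis-enriched copy, had 0 counts in all 39 libraries, while its parent Rpl10 was lower in macrophages, -0.92 ± 0.11 and -0.73 ± 0.10 (adjusted p = 7.98e-10 and 1.53e-07). Rpl39l did not pass the filter on low counts in monocytes alone.

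Per kilobase of transcript, the order of the members was similar in both cell types, with a Spearman correlation of 0.945 over 81 genes, which share libraries and lengths. The values are CPM per kilobase over all libraries of a cell type. In macrophages Rplp1 led at 864 ± 82 (SD, n = 19), above Rps9 at 585 ± 42.3 and Rps15 at 555.1 ± 60, and the last pair differed by less than their SD. In monocytes Rps9 led at 1308 ± 230 (SD, n = 20), followed by Rps15 at 900.6 ± 233 and Rplp0 at 877.9 ± 130, where the last pair again lay within their SD. Among members that passed the filter on low counts in each cell type, the lowest were Rpl3l (0.6955), Rpl39l (1.783) and Rpl24 (4.926) in macrophages and Rpl3l (0.9864), Rpl24 (8.024) and Rpl7l1 (43.86) in monocytes, where Rpl39l had 37 counts over 20 libraries and did not pass. Rpl24 was thus far below other core members. Ribosomal protein genes have many near-identical processed pseudogenes: 257 such rows were in the table, 200 of them with counts, and they held 0.00258 to 0.0126% of a library's counts. How reads that match several places were counted is not given in the sources used here, so levels such as that of Rpl24 are uncertain. The annotated length of Rps20 (3706 bases) also makes its low level per kilobase uncertain.

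Lists of genes that work with the ribosomal proteins were compared between the same groups. Of a list of 5 other ribosomal subunit genes, the 4 tested, Rack1 and Fau among them, were lower in macrophages at both ages, with medians of -0.78 and -0.71. Of 15 translation factors and other TOP mRNAs, 12 were lower and 0 higher in young mice and 11 and 0 in old mice, where 29% and 27.3% of all genes were lower. Their medians were -0.70 and -0.63. Eif3f, Eif3h and Eif3e, subunits of an initiation factor that binds the small subunit, changed by -1.34 ± 0.11, -0.99 ± 0.10 and -0.92 ± 0.09 in young mice (adjusted p = 7.41e-14, 2.71e-11 and 6.34e-11). Eef2, the translocase, averaged 1760 ± 79.4 CPM in young saline macrophages and 3250 ± 556 CPM in monocytes (SD, n = 5 each).

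Of 35 ribosome assembly factors, 17 were higher and 2 lower in young mice, where 31% of all genes were higher and 29% lower. In old mice 12 were higher, near the 29.7% of all genes, and 5 lower, against 27.3%. The medians were 0.26 and 0.22. Gnl3, the nucleolar GTPase nucleostemin, averaged 34.8 ± 3.7 CPM in young saline macrophages and 9.79 ± 1.43 CPM in monocytes, a log2 fold change of 1.83 ± 0.22 (adjusted p = 1.81e-09), and 1.32 ± 0.21 in old mice (adjusted p = 8.9e-07). Tsr1, which sits on maturing small subunits, changed by 1.75 ± 0.20 and 0.99 ± 0.19 (adjusted p = 5.37e-10 and 2.19e-05). Rrs1, an assembly factor of the large subunit, changed by 1.44 ± 0.16 and 0.85 ± 0.16, and Grwd1, which escorts Rpl3, by 1.55 ± 0.28 and 0.86 ± 0.27. Bysl and Npm1 were lower at both ages, and Fbl, the rRNA methyltransferase, was lower in old mice, -0.64 ± 0.17 (adjusted p = 0.00119).

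Among 21 genes of RNA polymerases I and III, which make ribosomal and transfer RNA, 3 were higher and 9 lower in young mice and 2 and 9 in old mice. Of all genes 31% and 29.7% were higher and 29% and 27.3% lower, so higher calls were less frequent and lower calls more frequent than over all genes. Both directions together were no more frequent than the 60% and 57% over all genes. Polr3g, an alternative subunit of polymerase III, changed by 0.91 ± 0.29 and 1.55 ± 0.29 (adjusted p = 0.00667 and 1.35e-05), and Brf1, its initiation factor, by -0.94 ± 0.12 and -0.92 ± 0.12 (adjusted p = 1.26e-08 and 2.06e-08). Among 18 genes of mTOR and Myc control, 5 were higher and 8 lower in young and 4 and 7 in old mice, where 31% and 29.7% of all genes were higher and 29% and 27.3% lower. Myc changed by 0.75 ± 0.24 and 0.85 ± 0.24 (adjusted p = 0.00672 and 0.00247). Eif4ebp2, a repressor of cap-dependent initiation that mTOR inactivates, changed by -1.33 ± 0.12 at both ages (adjusted p = 2.52e-12 and 2.56e-12). Mxd1, a Myc antagonist, changed by -1.75 ± 0.36 and -1.18 ± 0.35 (adjusted p = 5.84e-05 and 0.00402). The list did not move 1 way: Mxd4 changed by 0.49 ± 0.12 and 0.47 ± 0.12 and Mxi1 by 0.50 ± 0.17 in old mice. Max changed by -0.60 ± 0.11 and -0.49 ± 0.11, and Mnt by -0.91 ± 0.13 and -0.62 ± 0.13. No list was tested as a set.

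**Figure D4:**
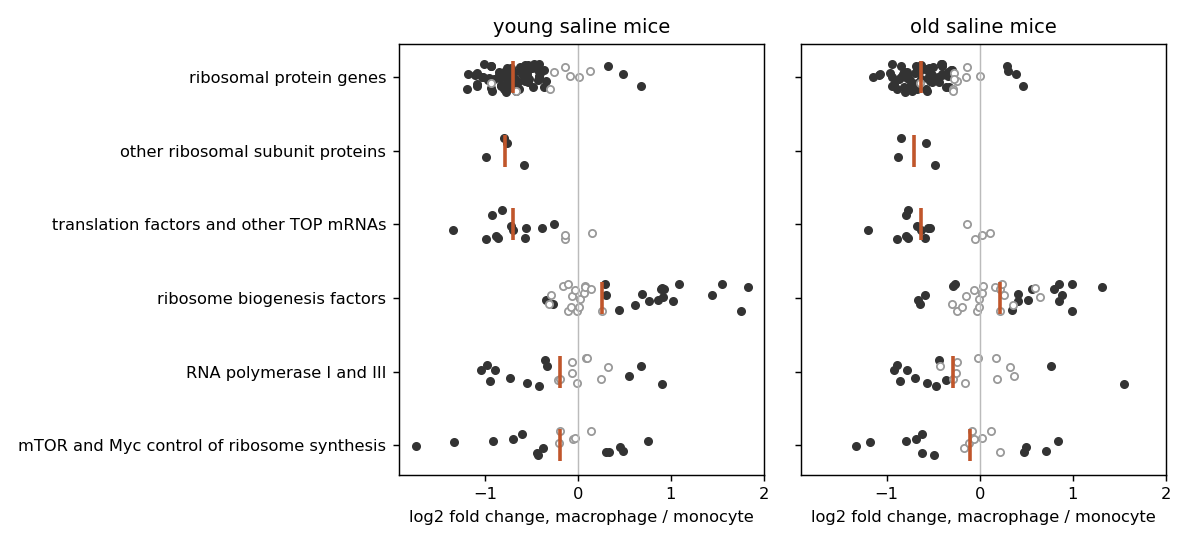
Log2 fold change of macrophages over monocytes (horizontal axis) for ribosomal protein genes and 5 lists of related genes in young (left) and old (right) saline mice; filled points were called at an adjusted p under 0.05, open points were not, and orange bars are medians. Points of ribosomal proteins, other subunit genes and translation factors lie mostly left of 0, and those of assembly factors lie on both sides with medians right of it. Rpl39l is left out of the ribosomal protein points and their median at both ages.

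Medians were below 0 for members with and without each promoter motif. The median log2 fold change in young mice was -0.76 for the 22 members with CTCTTT and -0.59 for the 40 tested without it, and in old mice -0.68 and -0.55. For CCGGAAG the medians were -0.56 with and -0.76 without it in young mice, and -0.51 and -0.66 in old mice. For TATAAA, found in 6 members, they were -0.42 with and -0.72 without it in young mice, and -0.44 and -0.63 in old mice. These medians are a description of overlapping sets.

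Within macrophages no member was called for age or for ISRIB. In old against young saline mice 0 of 82 were called, where 1.16% of all genes were. The members' median was -0.10, 72 of 82 lay below 0, and 14 had an unadjusted p under 0.05, all lower, where 4.78% of all genes were lower by that measure. Without young saline macrophage replicate 2 the median was -0.03, 24 members lay above 0, and 6 had an unadjusted p under 0.05. Rps6 was 179, 186.6, 123.3, 168.5 and 140.3 CPM in young and 123.5, 139.1, 135.7, 125.2 and 136.2 CPM in old saline macrophages, scaled within macrophages. The old values lay inside the lower part of the young range, and the log2 fold change was -0.27 ± 0.09 (adjusted p = 0.181). In old against young ISRIB macrophages 0 were called (background 0.937%) and the median was 0.05 (0.02 to 0.08 with single libraries left out). The 1 member with an unadjusted p under 0.05 there was Rps14, higher without overlap at 0.27 ± 0.09 (adjusted p = 0.179), where 6.43% of all genes were higher by that p and 2.71% without overlap. Averaged over both treatments 0 were called (background 4.86%) and 4 had an unadjusted p under 0.05 (17.8% of all genes). The smallest adjusted p was 0.0609, for Rps14 at 0.21 ± 0.07. Summed B and plasma cell markers were 6.97 to 29.3 CPM in young and 21.7 to 597 CPM in old macrophages. Dendritic cell markers were 6.11 to 14.1 CPM in young and 15.5 to 23 CPM in old macrophages, without overlap, and T and NK cell markers were 5.04 to 11.1 and 8.72 to 40.5 CPM. None of the 9 B and plasma cell, 5 dendritic cell and 11 T and NK cell markers was at 0 in all macrophage libraries, and their part in these values was not tested.

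ISRIB against saline in old macrophages gave 0 called members (background 0%) and a median of 0.04 (0.02 to 0.07 with single libraries left out), with 3 members higher at an unadjusted p under 0.05 (3.99% of all genes). Rps6 was 160.9, 160.1, 149.5, 145.4 and 153.7 CPM in old ISRIB macrophages, all above the old saline values given before, the 1 member whose libraries did not overlap, where 0.624% of all genes were higher without overlap. Its change of 0.22 ± 0.09 did not pass (adjusted p = 0.49). In young macrophages ISRIB gave 0 called members (background 0%), a median of -0.11 and 7 members lower at an unadjusted p under 0.05 (5.51% of all genes), of which Rps28 was lower without overlap (1.66% of all genes). Without saline replicate 2 that median was -0.04 and 1 member had an unadjusted p under 0.05. Averaged over both ages 0 were called (background 0.83%), with 5 at an unadjusted p under 0.05 (16.6% of all genes). The ISRIB effect in old minus that in young macrophages was above 0 for 78 of 82 members, with a median of 0.15 and a median SE of 0.13, and 0 were called (background 0%) with 3 higher at an unadjusted p under 0.05 (2.07% of all genes). Without young saline replicate 2 its median was 0.09, with 70 members above 0.

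Within monocytes 0 of 81 members were called in any comparison, but their values lay mostly on 1 side of 0 in each. The share of counts was 2.441% ± 0.155 in young ISRIB, 2.627% ± 0.225 in old saline and 2.781% ± 0.224 in old ISRIB monocytes (SD, n = 5 each). ISRIB against saline in young monocytes gave values below 0 for 81 of 81 members, a median of -0.27, and 20 lower at an unadjusted p under 0.05, where 3.02% of all genes were (0 called, background 0%). Without replicate 4 of the young saline group the median was -0.06, 14 lay above 0, and 1 had an unadjusted p under 0.05. Old against young saline monocytes gave a median of -0.17 (0 called, background 0.0247%, 1 lower at an unadjusted p under 0.05 against 3.76% of all genes), which turned to 0.04 without that library. In old monocytes ISRIB against saline gave a median of 0.13, with 0 called (background 0%) and 0 at an unadjusted p under 0.05 (7.54% of all genes), and the median was 0.05 without old ISRIB replicate 5.

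The comparison of old with young ISRIB monocytes does not involve the saline library that stood apart. There 80 of 81 members lay above 0, with a median of 0.23 and a median SE of 0.15. None was called (background 0%), 13 had an unadjusted p under 0.05, all higher, against 4.11% of all genes. For 29 of 81 members every old library was above every young one, which held for 0.904% of all genes. Rps2 was 244, 233.4, 249.9, 252.7 and 272.4 CPM in young and 313.3, 290, 297, 298.4 and 338.7 CPM in old ISRIB monocytes, scaled within monocytes. The groups were apart, and the change was 0.30 ± 0.10 (adjusted p = 0.567). Rps18 changed by 0.39 ± 0.15 (adjusted p = 0.666) and Rpl7a by 0.28 ± 0.11 (adjusted p = 0.639), also without overlap. Old ISRIB replicate 5 held the highest share of its group, 3.176%, and without it the median was 0.16, with 78 members above 0 and 3 at an unadjusted p under 0.05. Members of 1 library move together, so these counts do not stand for independent observations.

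The ISRIB effect in old minus that in young monocytes was above 0 for 81 of 81 members, with a median of 0.39 and a median SE of 0.21. None was called (background 0%), 21 were higher at an unadjusted p under 0.05 (3.94% of all genes), and the smallest adjusted p was 0.645, for Rpl37. Without young saline replicate 4 the median was 0.20 with 76 members above 0 and 5 at an unadjusted p under 0.05. Averaged over treatments, old minus young was 0.03 (0 called, background 0.123%, 0 at an unadjusted p under 0.05 against 8.24% of all genes) and 0.13 without that library. In the fit without it 31 members had an unadjusted p under 0.05, but the share of all genes was not counted there. Averaged over ages, ISRIB minus saline was -0.07 (0 called, background 0%, 0 at an unadjusted p under 0.05 against 7.49% of all genes) and 0.03 without that library. The age effect in saline macrophages minus that in saline monocytes had 0 called members (background 0.25%) and 0 at an unadjusted p under 0.05 (10.9% of all genes), and its median went from 0.07 to -0.12 without it.

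**Figure D5:**
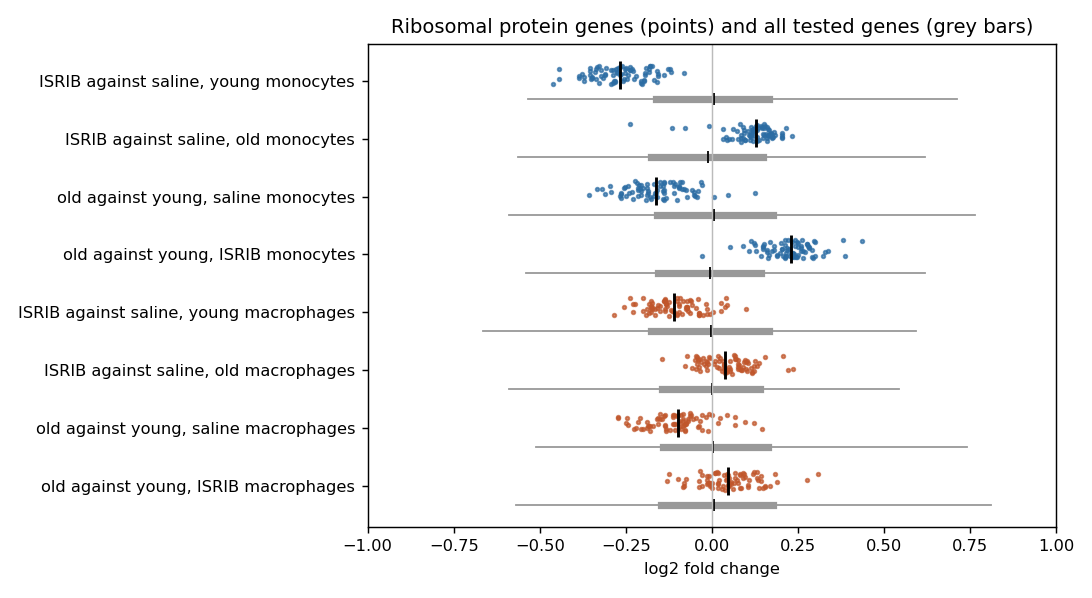
Log2 fold changes (horizontal axis) of ribosomal protein genes (points, with the median as a tall black bar) in 8 comparisons within monocytes (blue) and macrophages (orange); grey bars below show all tested genes, thin for the 5th to 95th and thick for the 25th to 75th percentile, and Rpl39l, Rpl3l and Rpl24 are left out for low counts. The family sits left of 0 for ISRIB in young monocytes and right of 0 for age in ISRIB monocytes, and no point was called.

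Levels of the members varied together across libraries. In monocytes 79 of 80 members correlated above 0.5 with the mean log2 CPM of the others over 20 libraries, with a median r of 0.9369, and 77 of 80 did without young saline replicate 4, with a median of 0.8876. In macrophages 71 of 79 did over 19 libraries, with a median of 0.7425. The share of counts in these genes correlated with the short minus long difference at 0.8153 in monocytes, at 0.1444 without replicate 4, and at 0.4854 in macrophages. The points share depth and scaling, and no test was made. Of genes outside the family, Eef1b2, an exchange factor for the elongation factor Eef1a1, was most like its mean in macrophages (r = 0.9275), ahead of Fau (0.8146), Gpsm3 (0.8072), Cfdp1 (0.8017) and Eif3f (0.7906). In monocytes Rack1 (0.954), Fau (0.9397), Eef1b2 (0.9371), Naca (0.9308) and Tyrobp (0.9281) were the closest. Without replicate 4 they were Rack1 (0.9627), Eef1a1 (0.9618), Eef1b2 (0.9556), Eif3h (0.8968) and Ndufb11 (0.8651), so Fau, Naca and Tyrobp were among the closest only with it.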

How the data were processed

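The deposited table holds raw, unscaled counts of reads for each Ensembl gene, with 1 column per library, per the file headers. Libraries were made from 3 ng of total RNA with polyA selection, per the labels' protocols. The submitters' processing notes name bcl2fastq 2.19.1, FastQC, Trimmomatic 0.36, STAR 2.6.0, HTSeq 0.11.2 and the build mm10. The annotation release, strand setting and treatment of reads with several matches were not given in the sources used here.

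Symbols were matched to GENCODE vM21 (GRCm38): 42546 of 43430 had a symbol (98.0%), and the rest held at most 0.133% of a library's counts. Differences were tested by quasi-likelihood in edgeR 4.0.16 (R 4.3.3) after TMM scaling and filterByExpr (minimum count 10, minimum total 15), with group means only, and Benjamini-Hochberg adjustment over all genes tested, with a threshold of 0.05. The 19 macrophage libraries (12171 genes, 82 members) and 20 monocyte libraries (12170 genes, 81 members) were fitted apart, and comparisons between cell types used all 39 (13587 genes, 82 members). The biological coefficient of variation was 0.206, 0.258 and 0.246. Values in CPM are scaled by TMM over the libraries of the same fit, except that marker sums are divided by library totals. Levels per kilobase use the shortest principal coding transcript. The 76 pairs of libraries within groups differed by more than counting noise (chi-square per degree of freedom 7.26 to 57.7).

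Alternatives were DESeq2 1.42.0, RLE factors, TMM without the ribosomal protein genes, library totals, no filter, offsets for transcript length and GC content (splines fitted on other genes), replicate number as a block, and leaving out each library. Shares of all genes called or without overlap come from the fits without these changes. In the alternatives, unadjusted p-values were counted over members only. The fits were tested on simulated data. Members given full values were up to 4 called members per direction with the largest change, Rplp0 to Rplp2, Rpsa, Rps6, Rpl5, Rpl11, paralogues with their parents, and the 3 highest and 3 lowest levels. Rps14, Rps18, Rps28, Rpl7a and Rpl37, and Eef2, Rrs1, Bysl, Npm1, Fbl, Mxd4, Mxi1, Max and Mnt among related genes, were named after their values were seen. Values of 2 genes are not reported here. The members and lists were chosen with earlier results of these data known.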

Additional observations from a re-analysis of the deposited data

Results flagged for a closer look

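Of 152 groups of 4 or 5 libraries examined, 19 held a library whose gap to the next was wide for the group's range (Dixon's 95% limit), where chance gives about 1 in 20. Young saline monocyte replicate 4 accounted for 6: a share of 4.36% and Rplp2 at 574.4, Rps27 at 463.7, Rps27l at 67.88, Rpl22 at 378.7 and Rpl22l1 at 72.38 CPM, all the highest of its group.

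Old ISRIB monocyte replicate 5 was the highest of its group in the share (3.176%) and in Rps6 (386.1 CPM), Rpsa (706.1 CPM), Rplp0 (1637 CPM), Rplp2 (402.2 CPM) and Rpl7 (646.3 CPM). Old ISRIB macrophage replicate 4 was the lowest of its group in the share (1.456%) and in Rplp0 (510.5 CPM). Old ISRIB macrophage replicate 2 was the highest of its group in the log2 ratio of Rps27l to Rps27 (-1.10). Young ISRIB monocyte replicate 2 was the lowest of its group in Rpsa (391.9 CPM) and Rpl22l1 (28.24 CPM), young ISRIB macrophage replicate 1 in Rps27l (59.31 CPM). Young saline macrophage replicate 2 was the highest of its group in Rpl7 (320.5 CPM). These values are not independent, since members of 1 library move together.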

How the results depend on the processing

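The count of members called between cell types, in either direction, stayed within 1.5 times under every alternative. It was 67 to 77 in young (62 to 73 of them lower) and 68 to 74 in old saline mice (64 to 70 lower) when single libraries were left out, and 68 to 75 and 64 to 73 under the others. Of 680 alternative values of 40 named results, 657 kept their call, 23 lost it and 0 reversed. Within cell types the count of 0 called members moved in 2 comparisons of macrophages. With length and GC offsets it became 2 for old against young saline mice (Rplp2 and Rps28, both lower) and 4 for old against young averaged over treatments (Rps26, Rplp2, Rpl28 and Rps27l, all lower). In that averaged comparison DESeq2 called 1 (Rps14, higher), and the range over left-out libraries was 0 to 1, again Rps14, without young saline replicate 2, old saline replicate 5 or old ISRIB replicate 3. The cause was not tested. With replicate number as a block, 74 members were called in young and 72 in old mice across cell types and 0 within them, the counts found without it, and no named result lost its call. Deviations of libraries sharing a number had a median r of 0.004 over 27 pairs in macrophages and -0.014 over 30 in monocytes. Of these pairs 2 and 4 had an r over 0.1. What the number stands for is not given in the labels, and no pairing was used. Depth limits Rpl39l, Rpl3l and Rpl24, and the median SE of 0.15 in monocytes limits how small a change could be called there.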
